A study of Homo sapiens with 3 samples.

Results

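The peaks described here are those of a KCNQ1OT1 ChIRP-seq experiment that lie at 6 genes of the imprinted region 11p15.5: KCNQ1OT1, KCNQ1, CDKN1C, PHLDA2, IGF2 and H19. A peak was taken as a member when any of its bases fell in the RefSeq body of one of these genes on GRCh38 or within 2 kb on either side. The genes were chosen with earlier results of these data known. The rule itself used gene positions alone and no measured value. It found 17 peaks of the 4889 in the deposited list. All 17 lay inside KCNQ1OT1 and, because that gene lies inside KCNQ1, inside KCNQ1 as well.

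ChIRP, short for chromatin isolation by RNA purification, uses biotin-labelled oligonucleotides that pair with an RNA to pull the RNA and the DNA held with it out of crosslinked chromatin. HEK293T, an established human embryonic kidney line, gave 3 libraries, namely a pulldown with an odd probe set, a pulldown with an even probe set and an input without probes, with 1 library in each group and no other treatment. Cells were crosslinked in 3% formaldehyde for 30 min and chromatin was sheared to fragments mostly below 500 bp. The authors deposited 1 merged list for these libraries, in which every peak name carries the label of the even set, so there are no replicates, no value per library and no test over samples. Whether a peak was recovered with both probe sets, the usual control of a ChIRP experiment, was not analysed here. The sequencing depth is unknown, because the list holds no read counts.

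KCNQ1OT1 is a long, mostly unspliced noncoding RNA of the nucleus. Its promoter lies in an imprinting control region within an intron of KCNQ1. On the paternal chromosome this region is unmethylated and the RNA is transcribed against the direction of KCNQ1, which keeps neighbouring genes of that chromosome, among them CDKN1C and PHLDA2, silent. On the maternal chromosome the region is methylated and the RNA is not made. IGF2 and H19 belong to a neighbouring domain with an imprinting control region of its own. The list does not separate the paternal from the maternal copy. The probes also match the DNA of the KCNQ1OT1 gene, so DNA held by the RNA and DNA caught by a probe cannot be told apart within this gene. The probe sequences and their positions were not used here.

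Of the 6 genes, KCNQ1OT1 and KCNQ1 had a peak and the other 4 had none. By the same rule 3.58% of the 59679 genes of the RefSeq table had a peak, or 7.03% of protein-coding genes and 2.84% of lncRNA genes. The share was higher among long genes, at 29.8% among protein-coding genes within 20% of the length of KCNQ1 and at 2.22% among protein-coding genes under 30 kb. CDKN1C, PHLDA2 and IGF2 belong to this last class, so the lack of a peak at them is what most genes of that size show.

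KCNQ1OT1 (chromosome 11, 2608328 to 2699994, 91.7 kb) held its 17 peaks in 47.6 kb, between 2651233 and 2698846. Transcription of the gene starts at its higher-coordinate end, which is background knowledge, since the gene table gives no strand. Distances below run from this end, at 2699994, along the transcript. The first peak began 1148 bp inside the gene and the farthest ended 48.8 kb from the start. The remaining 42.9 kb towards the far end held no peak of the deposited list. When the gene was divided into 4 parts of 22.9 kb, the part nearest the start held 8 summits, the next 8, the one after that 1 and the last 0. Peaks covered 25.04%, 26.1%, 7.73% and 0% of these parts. The 2 parts nearest the start were thus alike in the number of peaks and in the length covered.

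**Figure D1:**
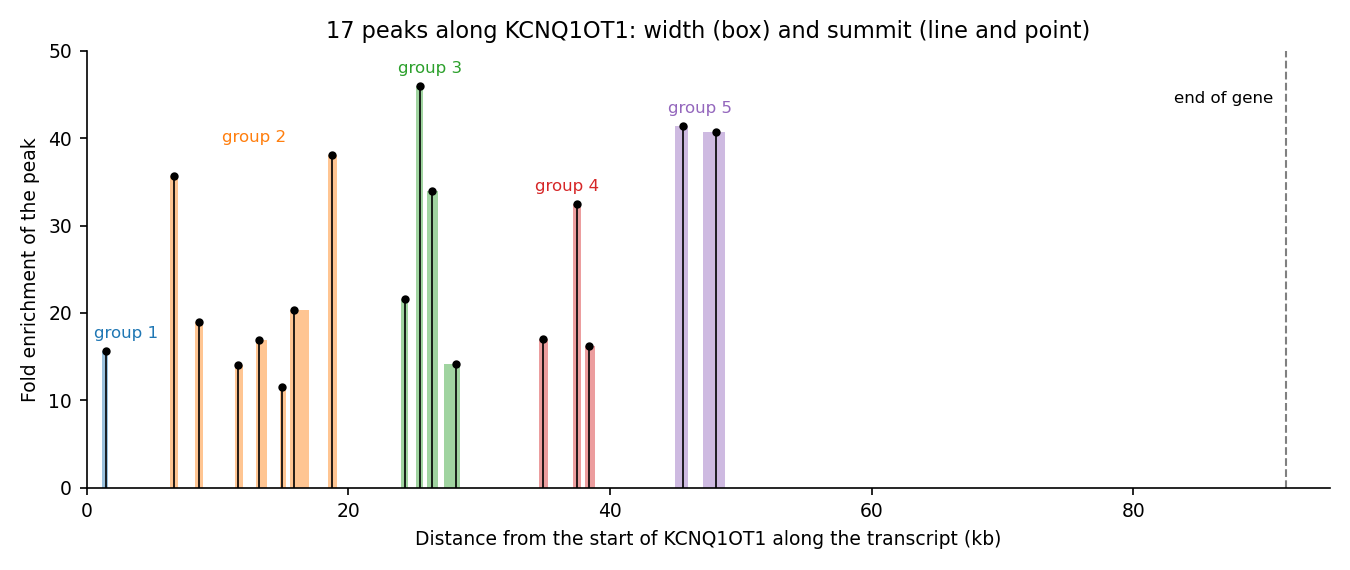
Peaks along KCNQ1OT1, with the distance from the start of the gene in kb on the x axis and the authors' fold enrichment on the y axis. Boxes span each peak, black lines and points mark the summits, and colours mark the 5 groups of peaks. The dashed line is the far end of the gene, before which 42.9 kb hold no listed peak.

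Neighbouring summits, the positions of highest signal in each peak, lay between 866 and 7124 bp apart, with a median of 2198 bp over 16 distances. The spacing was uneven, with 8 of the 16 distances under 2 kb and 4 above 5 kb. Measured from edge to edge, the gaps ran from 302 to 6175 bp. In 4 of them, between 302 and 429 bp, the gap was shorter than the 500 bp below which most fragments fall. The other end of the range was made of 4 gaps above 4 kb, of 4.75, 4.86, 6.03 and 6.18 kb. These split the peaks into 5 groups of 1, 7, 4, 3 and 2 peaks, counted from the start. The limit of 4 kb was chosen after the positions were seen.

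**Figure D2:**
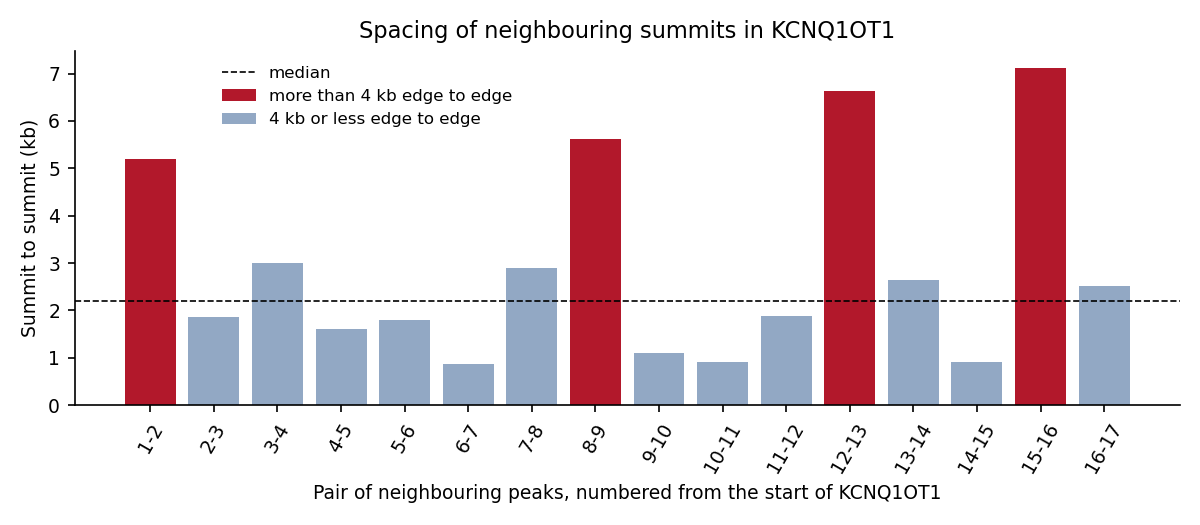
Distance in kb between the summits of neighbouring peaks in KCNQ1OT1, with the pairs numbered from the start of the gene on the x axis and the median of 16 distances as a dashed line. The 4 red bars, 5.19 to 7.12 kb high, are the pairs with more than 4 kb between their edges and separate the 5 groups.

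The first group was a single peak at 2698386 to 2698846. It was the member closest to the promoter of KCNQ1OT1, with its summit 1499 bp from the start. Its fold enrichment, the authors' linear ratio of signal to background, was 15.6, and its −log10 p of 42.3 was the lowest of the 17. No peak covered the start itself.

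The second group, at 2680827 to 2693631, held 7 peaks in 12.8 kb. Its folds from the start side onwards were 35.6, 18.99, 14.1, 17.0, 11.5, 20.4 and 38.1. The outermost peaks were thus the high ones, at 2693045 to 2693631 and at 2680827 to 2681543, and the 5 between them were low. The lowest fold of the gene, 11.5, belonged to the peak at 2684756 to 2685201. Its neighbour at 2683018 to 2684432 was 1415 bp wide, and the summits of this pair were 866 bp apart, the shortest distance in the gene.

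The third group, at 2671488 to 2675968, held 4 peaks in 4.48 kb, among them the one with the highest fold and the one with the highest −log10 p. The peak at 2674284 to 2674843 had the highest fold, 45.9, with a −log10 p of 198 and its summit at 25.4 kb from the start. The next peak, at 2673127 to 2673956, had a lower fold of 33.9 and the highest −log10 p, 232, with a summit 911 bp farther on. The outer peaks of the group had folds of 21.6 and 14.2. The order by fold and the order by p-value therefore differed between the 2 central peaks.

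The fourth group, at 2661174 to 2665458, held 3 peaks with folds of 17.0, 32.5 and 16.2, of which the middle one was high. The fifth, at 2651233 to 2654998, held 2 peaks with folds of 41.4 and 40.7. Only the peak with a fold of 45.9 was higher in this gene. The outer one, at 2651233 to 2652867, was the widest of the 17 at 1635 bp, and its summit lay 48.1 kb from the start. No peak lay beyond it, so the stretch ended at high peaks on the far side and at a low peak next to the promoter.

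The folds of the 17 peaks fell into a lower and a higher range, with no value between 21.6 and 32.5. The higher range held 7 peaks with folds of 32.5 to 45.9, and the lower held 10 with folds of 11.5 to 21.6. On the start side of the midpoint of the stretch 2 of 9 peaks were in the higher range, and on the far side 5 of 8. Each of the 4 groups with more than 1 peak held at least 1 peak of the higher range. Widths overlapped, with 560 to 1635 bp (median 717 bp) in the higher range and 446 to 1415 bp (median 672 bp) in the lower. The border between the ranges was drawn after the values were seen and no test was made of it.

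Fold and distance from the start had a Spearman rho of 0.38 over the 17 peaks, which share a locus and the same libraries. With −log10 p in place of fold it was 0.45. Without the 2 peaks farthest from the start, which were left out after the positions had been seen, rho was 0.15. The positive rho thus rests largely on that pair. Fold and width had a rho of 0.20 in the gene, and of −0.26 over the 4889 peaks of the list.

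Summits lay close to the middle of their peaks. Their distance from the peak centre had a median of 66.5 bp and ran from 17 to 443 bp. Of the 17 summits, 9 lay on the side nearer the start of the gene and 8 on the other. In bp, the off-centre extremes were the 2 wide peaks at 2683018 to 2684432 and 2671488 to 2672697, with summits 443 and 332 bp from the centre. The summit lay towards the start in the first and away from it in the second, so these 2 had no side in common. Counted from the lower-coordinate edge, the second had its summit at 22.6% of its width. The 461 bp peak next to the promoter had it at 23.6%. In the widest peak, of 1635 bp, the summit was 121 bp from the centre.

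KCNQ1 encodes the pore-forming subunit of a voltage-gated potassium channel and spans 2445008 to 2849105, or 404 kb. Within it the summits lay between 207 and 253 kb from the lower-coordinate end, where its transcription starts, that is between 51.2% and 62.7% of its length. No peak lay in the 163 kb of KCNQ1 before KCNQ1OT1 or in the 149 kb after it. Among the 348 other protein-coding genes within 20% of its length, 103 had a peak and the most at any was 3. The positions of the KCNQ1 exons were not used here, so exonic and intronic peaks were not told apart.

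CDKN1C, which encodes an inhibitor of cyclin-dependent kinases, and PHLDA2, which encodes a pleckstrin homology domain protein that limits placental growth, lie on the start side of KCNQ1OT1. CDKN1C (2883218 to 2885775) was 184 kb from the nearest peak and PHLDA2 (2928273 to 2929420) 229 kb. In both cases the nearest peak was the low one next to the KCNQ1OT1 promoter. On the side away from KCNQ1OT1 the next peak began at 6348708, with a fold of 5.40. The interval without a peak of the deposited list therefore ran for 3.65 Mb from the first KCNQ1OT1 peak, across CDKN1C and PHLDA2.

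IGF2, a fetal growth factor gene (2129117 to 2149566), and H19, a maternally expressed lncRNA gene (1995176 to 2001266), lie on the far side. IGF2 was 177 kb and H19 325 kb from the nearest peak. That peak, at 2326198 to 2326578, had a fold of 7.77 and a −log10 p of 29.5, both below the lowest values in KCNQ1OT1. It had no gene of the table within 2 kb. From the farthest KCNQ1OT1 peak the distances were 502 kb to IGF2 and 650 kb to H19.

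**Figure D3:**
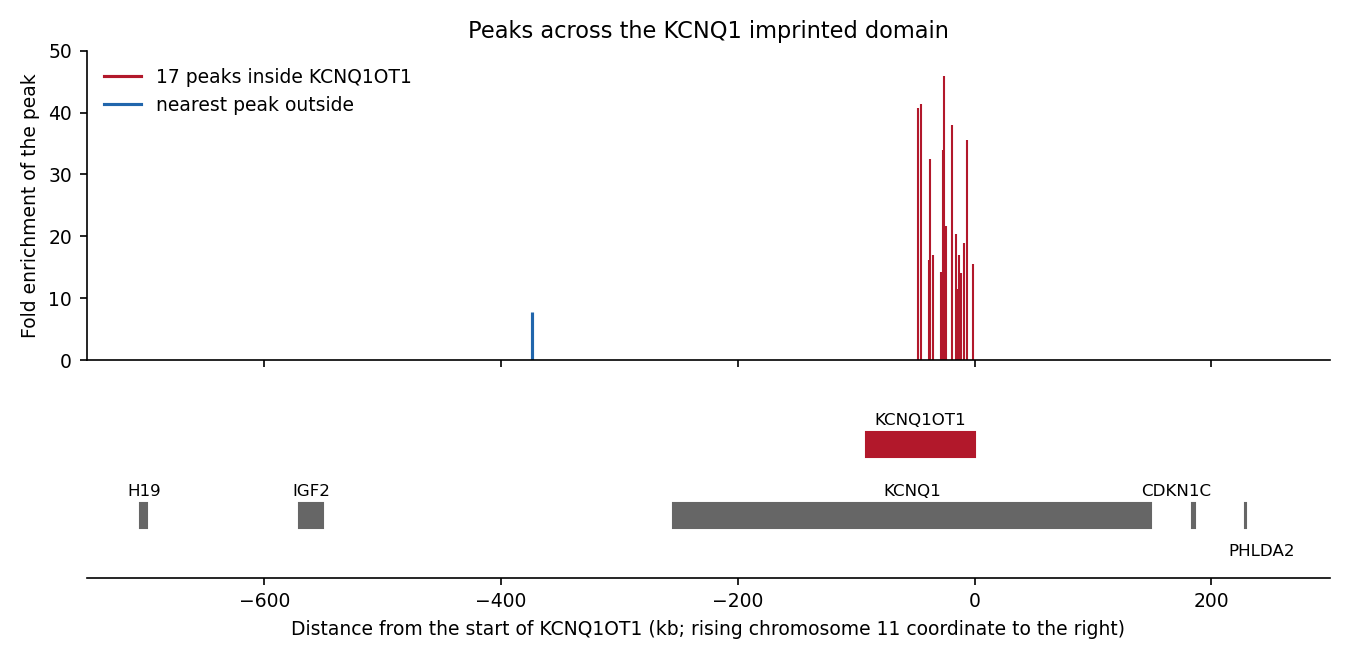
Peaks across the imprinted domain, with the distance from the start of KCNQ1OT1 in kb on the x axis and the authors' fold enrichment on the y axis, above the bodies of the 6 genes. The 17 red peaks lie inside KCNQ1OT1, the blue peak with a fold of 7.77 is the other one in the range drawn, and none lies at H19, IGF2, CDKN1C or PHLDA2.

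The other genes of the region were read from a list of 27 around the 6, all of which were found in the table. None of the 27 had a peak in its body or within 2 kb. With a peak at 3.58% of all genes, and at 2.22% of protein-coding genes under 30 kb, 0 of 27 is near the background and says nothing particular about these genes. They include KCNQ1DN, a noncoding gene between KCNQ1 and CDKN1C, KCNQ1-AS1, which overlaps the end of KCNQ1, SLC22A18, a transporter gene next to PHLDA2, NAP1L4, on the other side of PHLDA2, and TRPM5, a cation channel gene next to KCNQ1. Their distance to the nearest peak had a median of 201 kb and reached 659 kb. The closest was the tetraspanin gene TSPAN32, 7.99 kb from the peak at 2326198 to 2326578, which is named here after its distance was seen. KCNQ1-AS1, at 141 kb, and KCNQ1DN, at 171 kb, had the KCNQ1OT1 peak next to the promoter as their nearest.

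Beyond these genes, the 5 Mb next to the end of chromosome 11 held 22 peaks, the 17 in KCNQ1OT1 and 5 others. The 5 had folds of 3.24 to 7.77 and −log10 p of 8.37 to 29.5, which do not overlap the 11.5 to 45.9 and 42.3 to 232 in KCNQ1OT1. Chromosome 11 as a whole held 171 peaks outside KCNQ1OT1, with a median fold of 6.85. Of these, 56 had a fold of at least 11.5 and 11 had one above 45.9. High peaks were therefore also present elsewhere on the chromosome.

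Within the whole list the 17 peaks were above the middle in height and not extreme. All 17 had a fold of at least 10, which 43.5% of the listed peaks had. A fold of at least 20 was reached by 9 of 17 and by 25.5% of the list, and a fold of at least 30 by 7 of 17 and by 16.7%. The highest peak of the gene ranked 362 by fold and the lowest 1888 among 4889. In width 13 of the 17 lay within the interquartile range of the list, 550 to 1516 bp, 1 was above it and 3 below.

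At equal fold the p-values in the gene overlapped those elsewhere. The 7 peaks of the higher range had −log10 p of 132 to 232 with a median of 168. The 350 other peaks with folds in that range had a median of 159 (interquartile range 136 to 180). The 10 peaks of the lower range had a median of 67.8, against 59.3 for 710 other peaks (42.9 to 93.7).

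**Figure D4:**
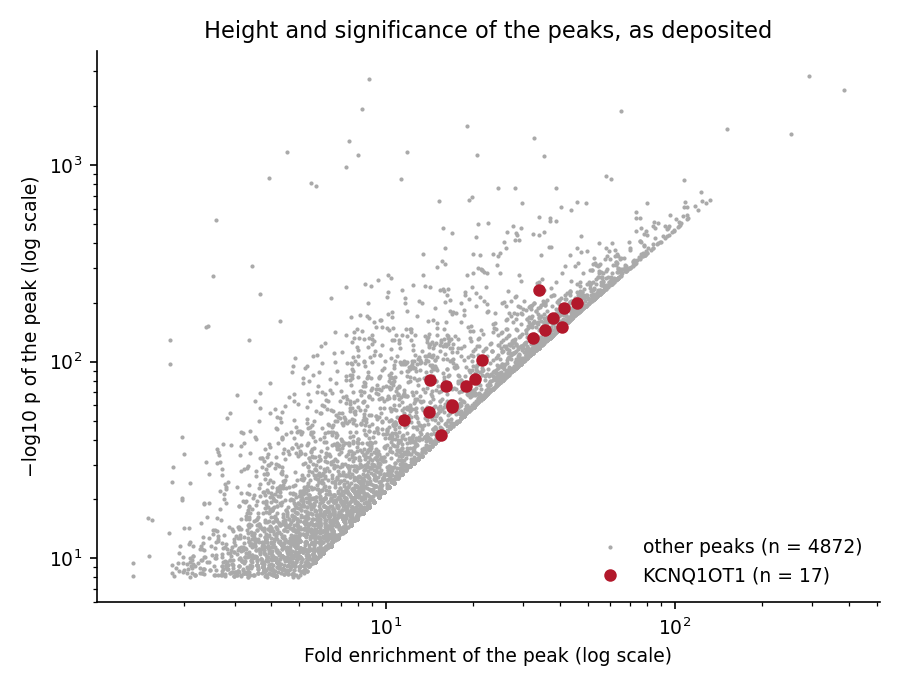
The authors' −log10 p of each peak against its fold enrichment, both on log scales, for the 17 peaks in KCNQ1OT1 (red) and the 4872 other peaks of the list (grey). The red points lie among the grey ones, with folds of 11.5 to 45.9 and no red point between 21.6 and 32.5.

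The number of peaks lying together in KCNQ1OT1 is given as a description, with no test. The probes pair with the RNA of this gene and also match its DNA, so it is not on equal terms with other genes and windows. By peak count the gene ranked 1 among all genes, with KCNQ1 sharing the same 17, and the most at any other gene was 5, at TTC34 and AGBL1. Among 554 other lncRNA genes within 20% of its length, 46 had a peak and none had more than 2. With KCNQ1OT1 itself the share with a peak was 8.47%. Per length the gene held 1.85 peaks per 10 kb and ranked 2 among 24070 genes of at least 10 kb, after the pseudogene LOC442443 on the X chromosome, which has 3 peaks in 13.3 kb and is named after its value was seen.

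The stretch was also set beside windows of the same 47.6 kb. Outside KCNQ1OT1, 3510 windows without overlap held a peak, 2899 of them a single peak, and none held more than 11. The densest were on chromosome 1, at 122244710 to 122292323 and 122300937 to 122348550 with 11 peaks each, and 122352234 to 122399847 with 10, all in an interval of at least 2 Mb without a gene. Median folds in these 3 windows were 4.02, 4.22 and 4.39, against 20.4 in KCNQ1OT1. Their peaks covered 50.5%, 58.0% and 40.0% of the window, against 28.3% of the stretch in KCNQ1OT1. Beside these 3 windows, the peaks in KCNQ1OT1 were more numerous and higher and covered less of the sequence. Most of the 61 other windows with at least 5 peaks had a median fold below 20.4, but not all. On chromosome 4, the gene-free window at 50990717 to 51038330 held 5 peaks with a median fold of 36.8, which covered 27.3% of it.

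Outside such gene-free intervals the densest window was on chromosome 2 (87396847 to 87444460), at the lncRNA gene LINC01943, with 8 peaks. Their folds ran from 6.09 to 27.4 with a median of 12.3, and the summits had a median spacing of 2804 bp. The next, on chromosome 3 (91037241 to 91084854 and 90940949 to 90988562), held 7 and 6 peaks with median folds of 4.37 in both. No gene was found at either of these chromosome 3 windows. They counted as outside only because the limit of 2 Mb was not met there, so they do not stand for sequence with genes.

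**Figure D5:**
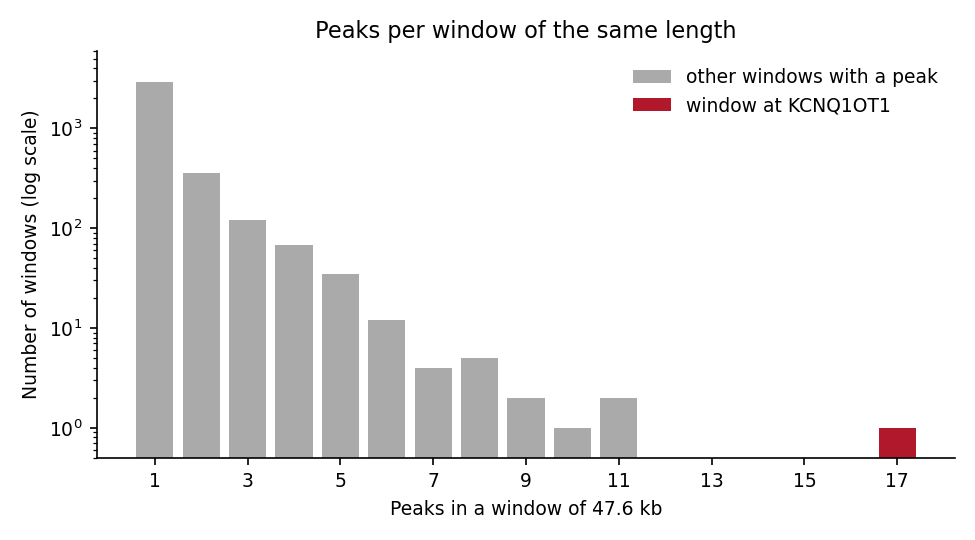
Number of windows of 47.6 kb, on a log scale, by the number of peaks they hold. Grey bars are 3510 windows elsewhere that hold a peak, with at most 11, and the red bar is the window at KCNQ1OT1 with 17.

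Isolated peaks were the rule elsewhere. The nearest other summit lay at a median of 1.61 kb in KCNQ1OT1 and at most at 5.19 kb. For the 4724 other peaks on the primary chromosomes the median was 104 kb, and 9.55% had a neighbour within 5.19 kb. Outside the gene-free intervals it was 247 kb and 3.64% for 3215 peaks.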

How the data were processed

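Per the submitters' processing notes, Bowtie2 and MACS2 were used with GRCh38. Versions, settings, the control for peak calling and the way of merging are not given there. The authors deposited, for each peak, a fold enrichment (a linear ratio), −log10 of its p-value, and a score, which equals the whole part of 10 times −log10 p. The summit is the start plus the deposited offset, and positions are counted from 1. These values are the authors' and describe peaks within their list only.

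Peaks were matched to the RefSeq gene table of GRCh38.p14 (59679 genes on the primary chromosomes), which has no strand or exons; no sequence of the 17 peaks was used. Windows elsewhere start at a peak, count peaks wholly inside and were kept from the fullest downwards without overlap. Python 3.11.15, pandas 2.3.3 and scipy 1.17.1 were used. Counting was tested on simulated lists. Members and gene lists were chosen with earlier results of these data known. Named are the 6 genes, some listed genes next to a member, every member peak, and other genes and windows with the most peaks. Listed genes at or next to IGF2 and H19, and SLC22A18AS next to CDKN1C, were left out. TSPAN32 and LOC442443 fall outside this rule. Alternatives for flank, overlap, list threshold, joining and position were tried. No test over samples was possible with 1 merged list.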

Additional observations from a re-analysis of the deposited data

How the results depend on the processing

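Over 32 alternatives for 8 results, 28 planned and 4 added after the data were seen, 30 values stayed within 1.5 times the reported one (within 0.2 for rho). The 17 peaks and the 2 genes with a peak were found with the gene body alone, a flank of 10 kb, the summit or most of the peak inside, and the upper part of the list by score or by fold. The other 2 values were the rank of KCNQ1OT1 by peak count, which was 2 when counted per kb, and the rho of fold with distance, which was 0.15 without the 2 peaks farthest from the start. With peaks less than 500 bp apart joined, 13 peaks remained, with a median spacing of 2782 bp and a median fold of 21.6. No paired analysis was possible because there is 1 merged list and 1 library in each group. The depth of the libraries is unknown.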

Other observations

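The peak names hold rising numbers along chromosome 11, and most numbers are absent from the list. Within the KCNQ1OT1 run, 4520 to 4537, number 4534 was absent. Its neighbours place it between 8.91 and 11.3 kb from the start of the gene, in the gap of 2424 bp between the peaks at 2688010 to 2688659 and 2691084 to 2691713. Between the nearest outside peak, number 4516, and the farthest KCNQ1OT1 peak, 3 numbers were absent over 325 kb, which include the far 42.9 kb of KCNQ1OT1 and the part of KCNQ1 before it. Between the first KCNQ1OT1 peak and number 4564, 26 were absent over 3.65 Mb, which include CDKN1C and PHLDA2. On chromosome 11 as a whole 14.7% of the numbers were present.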
